A study of Mus musculus with 18 samples.

Results

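The translation initiation factors of the mouse kidney were followed by the mRNA of their genes, taken as the protein-coding genes whose symbols begin with Eif1 to Eif6. The eIF2 kinases, whose symbols begin with Eif2ak, were left out. The rule found 51 genes among 21519 protein-coding genes and 45706 genes in all, on 19 chromosomes. The RNA came from 18 whole kidneys of mice on the C57BL/6 background. In the 5 Cxcl12 KO samples, both Cxcl12 alleles were floxed and the mice carried Pax8rtTA and TetOCre, and the 3 Cxcl12 control samples had the floxed alleles and Pax8rtTA without TetOCre. The 5 Myc KO and 5 Myc control samples had the same transgenes with floxed Myc alleles. The animals were young adult male littermates. Doxycycline had been given and washed out before surgery, so that the recombinase was induced from the Pax8 promoter in tubule cells, while the endothelial, interstitial and immune cells of a KO kidney kept the gene. In all 4 groups the vessels of both kidneys had been clamped for 22.5 min and the blood flow restored for 12 h, and no uninjured kidney was analysed here.

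Initiation factors bring the initiator tRNA, the mRNA and the ribosomal subunits together at a start codon. eIF2 carries the initiator tRNA to the small subunit and is recharged with GTP by eIF2B, eIF3 holds the small subunit, eIF4E, eIF4G and eIF4A bind and unwind the capped end of the mRNA, and the eIF4E-binding proteins (4E-BPs) keep eIF4E away from eIF4G. MYC is a transcription factor that binds the E-box CACGTG as a dimer with MAX and is known to raise the expression of ribosomal and translation genes, and CXCL12 is a chemokine.

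The promoter windows of 5 members are shown first, namely the 2 called lower in Myc KO kidneys that have a window and 3 of those that hold the E-box, because the question of the Myc comparison bears on these sequences. They come from RefSeq on the build GRCm38.p6 and run from 250 bases before to 50 bases after a transcription start, 5′ to 3′ on the strand of the gene. The letters CACGTG are in capitals, and they read the same on both strands. The windows are chr12:78861822-78862121 on the plus strand for Eif2s1, chr5:124579082-124579381 on the minus strand for Eif2b1, chr11:69921337-69921636 on the minus strand for Eif5a, chr3:138527018-138527317 on the plus strand for Eif4e and chr16:20672477-20672776 on the plus strand for Eif4g1.
Eif2s1: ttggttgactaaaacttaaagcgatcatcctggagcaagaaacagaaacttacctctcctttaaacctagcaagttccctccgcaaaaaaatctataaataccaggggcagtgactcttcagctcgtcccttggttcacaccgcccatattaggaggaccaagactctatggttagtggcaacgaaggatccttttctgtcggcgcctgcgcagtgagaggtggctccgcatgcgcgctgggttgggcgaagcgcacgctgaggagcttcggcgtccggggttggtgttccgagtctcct
Eif2b1: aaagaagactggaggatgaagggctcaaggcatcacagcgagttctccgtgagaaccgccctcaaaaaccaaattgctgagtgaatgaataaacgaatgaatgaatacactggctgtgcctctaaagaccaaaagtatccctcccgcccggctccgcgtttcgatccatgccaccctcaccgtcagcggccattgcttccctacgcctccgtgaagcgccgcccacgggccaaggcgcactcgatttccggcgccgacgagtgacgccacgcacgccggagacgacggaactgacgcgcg
Eif5a: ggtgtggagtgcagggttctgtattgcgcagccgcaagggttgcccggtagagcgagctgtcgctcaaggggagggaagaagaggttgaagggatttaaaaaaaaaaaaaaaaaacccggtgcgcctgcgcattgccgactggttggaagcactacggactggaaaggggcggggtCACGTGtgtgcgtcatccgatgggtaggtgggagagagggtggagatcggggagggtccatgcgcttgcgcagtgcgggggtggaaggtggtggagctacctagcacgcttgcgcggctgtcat
Eif4e: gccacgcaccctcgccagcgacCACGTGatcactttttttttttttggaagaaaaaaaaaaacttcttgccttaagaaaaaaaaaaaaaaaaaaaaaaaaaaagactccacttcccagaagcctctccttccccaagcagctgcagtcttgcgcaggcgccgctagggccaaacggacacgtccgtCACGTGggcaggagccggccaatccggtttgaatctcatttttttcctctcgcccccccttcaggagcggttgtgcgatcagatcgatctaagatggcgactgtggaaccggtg
Eif4g1: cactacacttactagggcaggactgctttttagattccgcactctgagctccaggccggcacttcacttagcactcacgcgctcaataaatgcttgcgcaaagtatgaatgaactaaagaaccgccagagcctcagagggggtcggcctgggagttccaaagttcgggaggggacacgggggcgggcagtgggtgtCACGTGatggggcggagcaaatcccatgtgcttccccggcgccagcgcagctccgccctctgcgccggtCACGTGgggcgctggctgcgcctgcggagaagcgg

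The windows of Eif2s1 and Eif2b1, whose mRNAs fell in Myc KO kidneys, do not hold the letters CACGTG. In Eif5a the motif begins 74 bases before the start, at position -74, and it occurs in 3 of the 6 windows listed for this gene. The Eif4e window holds it at -228 and -64, and the Eif4g1 window at -54 and 16. Of the 2 windows of Eif4e, 1 holds the motif, and Eif4g1 has 1 window. Where a gene had several windows, a window with the motif was printed. The starts of the printed windows lie 572, 1089 and 4414 bases from the gene start in GENCODE for Eif5a, Eif4e and Eif4g1. Of the 51 members, 39 had a window, and 10 of them (25.6%) held CACGTG in at least 1 window. The share was 8.09% among all 27025 genes with a window. It was 11.3% among the 11532 such genes tested in the fit of both cohorts together. The 10 members with the motif are Eif1b, Eif3a, Eif3f, Eif3k, Eif4a1, Eif4e, Eif4g1, Eif4h, Eif5a and Eif5a2. The genes without an entry are Eif1a, Eif2b3, Eif3e, Eif3h, Eif3i, Eif3j2, Eif4e1b, Eif4e3, Eif4ebp1, Eif4ebp3, Eif4g2 and Eif6. A match of these letters is a description of the window, and no binding was measured.

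Counts on genes ranged from 12918220 to 29749500 reads per kidney. The share of unmapped reads was under 5% (3.69% to 4.63%) in 6 kidneys, which also had the most reads. Myc KO and Myc control held 2 of them each, Cxcl12 KO held 2 and Cxcl12 control held 0. The study's methods mention a correction for batch effects, but neither they nor the labels say which kidneys formed a batch. Nothing in the labels ties a kidney of one group to a kidney of another or states that replicates are separate animals, so that p-values measure the spread between these samples. Levels are given in CPM, counts scaled to a common library size. The markers of the labelled tissue were present in every kidney, with sums of 2998 to 4717 CPM for 5 proximal tubule genes and 2959 to 6561 CPM for 5 genes of loop, distal tubule and collecting duct. The targeted gene was lower in the KO kidneys of its own cohort. Myc had 36.9, 29.0, 29.5, 26.5 and 32.5 CPM in Myc KO and 116, 92.9, 85.2, 98.3 and 79.6 CPM in Myc control kidneys. All Myc KO kidneys were below all control kidneys (log2 fold change -1.61, SE 0.12, adjusted p = 8.8e-05 by edgeR's quasi-likelihood test). Cxcl12 had 29.0, 36.4, 29.4, 26.3 and 40.9 CPM in Cxcl12 KO and 55.4, 60.8 and 45.3 CPM in Cxcl12 control kidneys. The groups did not overlap, but the adjusted p of the log2 fold change of -0.73 (SE 0.15) was 0.094 by edgeR. Both transcripts remained measurable in KO kidneys.

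Initiation factor mRNAs were abundant. Per kilobase of exon, the median tested member had a level of 22.3 CPM, against 4.43 CPM for all tested genes, and 47 of the 50 tested members lay above that median of all genes. Eif5a, whose protein helps the ribosome through difficult peptide bonds and carries the modified amino acid hypusine, had the highest level per kilobase with 176 ± 32.6 CPM (SD over the 18 kidneys). It was followed by Eif4g2, a scaffold related to eIF4G that does not bind eIF4E, with 157 ± 12.3 CPM per kilobase, a level within the spread of Eif5a. Eif5, Eif6, Eif3c and Eif4g1 came next at 91.0 to 95.9 CPM per kilobase and did not differ beyond their spread. At the low end, Eif2s3x had 2.04 ± 0.35, Eif3j1 had 1.78 ± 0.14 and Eif3j2 had 0.43 ± 0.14 CPM per kilobase. Eif4e1b, an eIF4E homologue of oocytes, had 1 read in 1 Cxcl12 control kidney and 0 reads in the other 17, so that it was not tested. The highest level was 410 times the lowest among tested members.

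**Figure D1:**
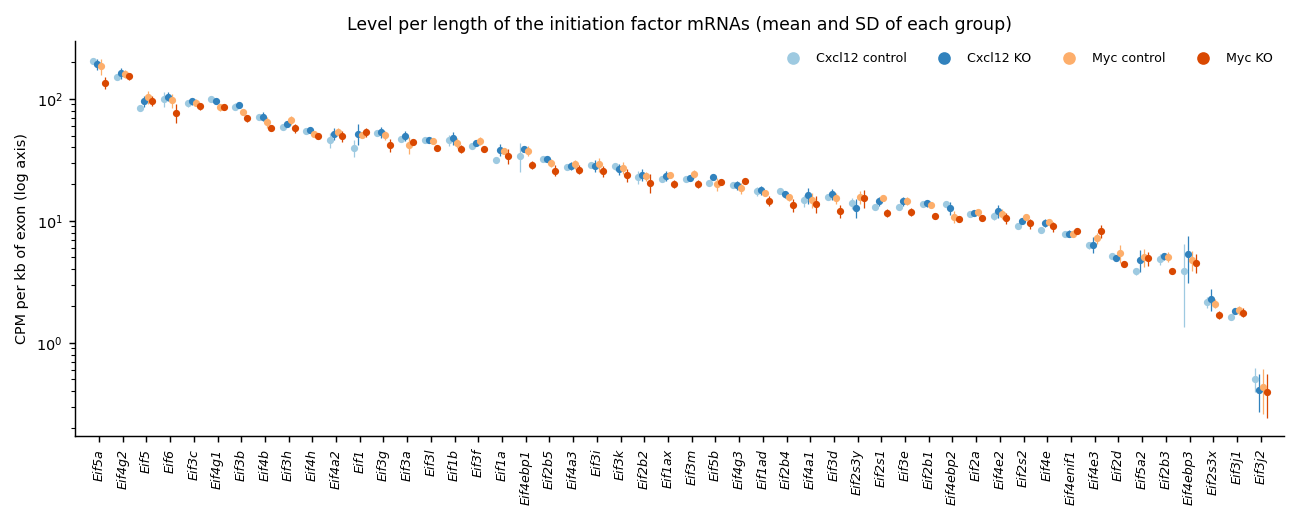
Level per kilobase of exon (CPM per kb, log axis) of the 50 tested initiation factor genes in each of the 4 groups, as group mean and SD. Levels run from Eif5a at 176 to Eif3j2 at 0.43 CPM per kb when averaged over all 18 kidneys, and the groups lie close together for most genes.

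Some of these counts may hold or miss reads of other genes. In 8 members over 25% of the 50-base windows of the exons also occur in another gene: Eif1, Eif2s3x, Eif3d, Eif3h, Eif3j1, Eif3j2, Eif4a1 and Eif4ebp3. Eif3j1 and Eif3j2 share 54.8% and 91.8% of their windows with any other gene, and each is the main sharer of the other. Eif4a1 shares 33.3% of its windows, with the processed pseudogene Eif4a-ps4 as the main sharer. Eif3d overlaps the antisense gene Gm17638 over 43.3% of its exon length, and Eif4ebp3 overlaps AC115631.1 over 67.3%. Without strand, reads of such partners cannot be told apart. These members are uncertain in their level. The called members Eif2b1 and Eif2b3 share no such window, and Eif2s1 and Eif4ebp1 share 8.49% and 7.50%.

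The loss of Myc in tubule cells was compared with Myc control to learn how tubular Myc affects the injured kidney. Most initiation factor mRNAs had a lower level in Myc KO kidneys, by a small amount, and 4 fell past the threshold: Eif2s1, the alpha subunit of eIF2 whose phosphorylation slows initiation under stress, Eif2b3 and Eif2b1, the gamma and alpha subunits of eIF2B, and Eif4ebp1, the 4E-BP best known as a target of mTORC1. These 4 of 50 tested members (8.0%) compare with 1.29% of the 14936 genes tested that were called lower, and no member was called higher, against 0.355% of all genes. The log2 fold change was below 0 for 43 of the 50 members, against 50.1% of all genes. The median over members was -0.16, against -0.00083 for all genes. An unadjusted p under 0.05 with a lower level was found for 22 members (44.0%, against 11.2% of all genes), and with a higher level for 1, Eif4g3 (2.0%, against 10.6%). In whole kidneys, fewer cells of a type and less RNA per cell cannot be told apart.

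**Figure D2:**
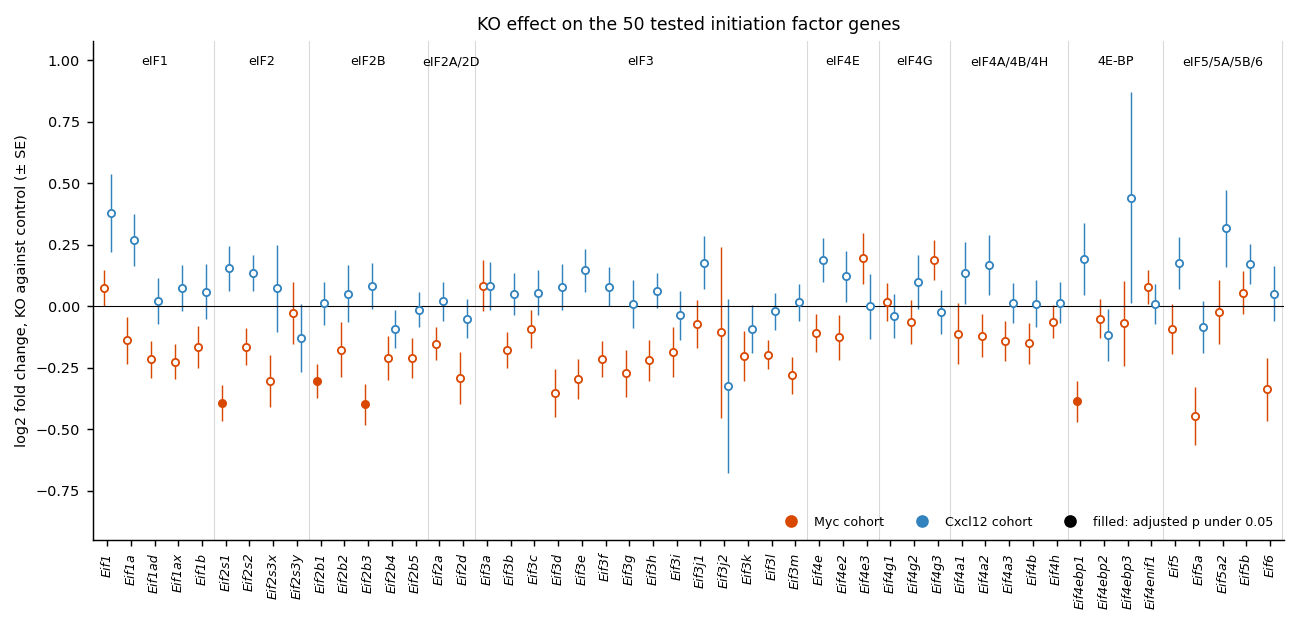
Log2 fold change of KO against control with its SE (vertical axis) for each of the 50 tested members, grouped by role along the horizontal axis, in the Myc cohort (orange) and the Cxcl12 cohort (blue). Filled points have an adjusted p under 0.05 and are 4 Myc cohort values, and 43 orange points lie below 0 while 38 blue points lie above it.

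Eif2s1 had 55.4, 51.8, 58.6, 57.4 and 64.6 CPM in Myc KO kidneys and 74.7, 78.0, 75.7, 80.5 and 69.1 CPM in Myc control kidneys. All KO kidneys were below all control kidneys, and the nearest were KO kidney 5 and control kidney 5. The mean was 57.6 ± 4.71 CPM (SD, n = 5) against 75.6 ± 4.25 CPM (SD, n = 5), a fall by 23.8% (log2 fold change -0.39, SE 0.07, adjusted p = 0.026 by edgeR's quasi-likelihood test). The exact two-sided permutation test gave p = 0.0079, the smallest that 5 against 5 kidneys allow. The other eIF2 genes encode the beta and gamma subunits. Eif2s2 had a log2 fold change of -0.16 (adjusted p = 0.23 by edgeR), the X-linked Eif2s3x one of -0.30 (0.13) and its Y-linked homologue Eif2s3y one of -0.03 (0.92).

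Eif2b3 had 26.7, 25.2, 24.6, 25.4 and 23.3 CPM in Myc KO kidneys and 36.0, 33.7, 27.8, 34.0 and 33.4 CPM in Myc control kidneys. Control kidney 3 stood apart from the other controls and lay just above the highest KO kidney. The log2 fold change was -0.40 (SE 0.08, adjusted p = 0.034 by edgeR), and the groups did not overlap (exact p = 0.0079). Eif2b1 had 30.4, 28.5, 28.5, 26.0 and 28.2 CPM in Myc KO kidneys against 35.9, 34.3, 32.3, 36.4 and 35.8 CPM in control kidneys. Again no KO kidney reached a control kidney, and the log2 fold change was -0.30 (SE 0.07, adjusted p = 0.0497 by edgeR, close to the threshold of 0.05). This call held in 5 of 23 alternatives and in 1 of the 10 that left out a kidney, without control kidney 3. The 5 eIF2B genes were all lower, with log2 fold changes from -0.40 to -0.18 and a median of -0.21. Eif2b5, the catalytic subunit of eIF2B, had 78.5, 64.8, 62.5, 62.8 and 65.6 CPM in Myc KO and 73.0, 77.4, 73.6, 86.6 and 75.8 CPM in Myc control kidneys. KO kidney 1 lay among the controls and the other KO kidneys below them (log2 fold change -0.21, SE 0.08, adjusted p = 0.17 by edgeR).

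Eif4ebp1 had 65.5, 63.3, 63.1, 67.1 and 54.6 CPM in Myc KO kidneys and 78.4, 92.7, 73.6, 87.3 and 77.6 CPM in Myc control kidneys. The groups did not overlap, and the control kidneys were more spread than the KO kidneys. The mean was 62.7 ± 4.84 CPM (SD, n = 5) against 81.9 ± 7.83 CPM (SD, n = 5), with a log2 fold change of -0.39 (SE 0.08, adjusted p = 0.040 by edgeR). No other inhibitor of eIF4E passed the threshold. Eif4ebp2 had a log2 fold change of -0.05, Eif4ebp3 of -0.07 and Eif4enif1, which carries eIF4E into the nucleus, of 0.08, with adjusted p from 0.51 to 0.85 by edgeR.

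**Figure D3:**
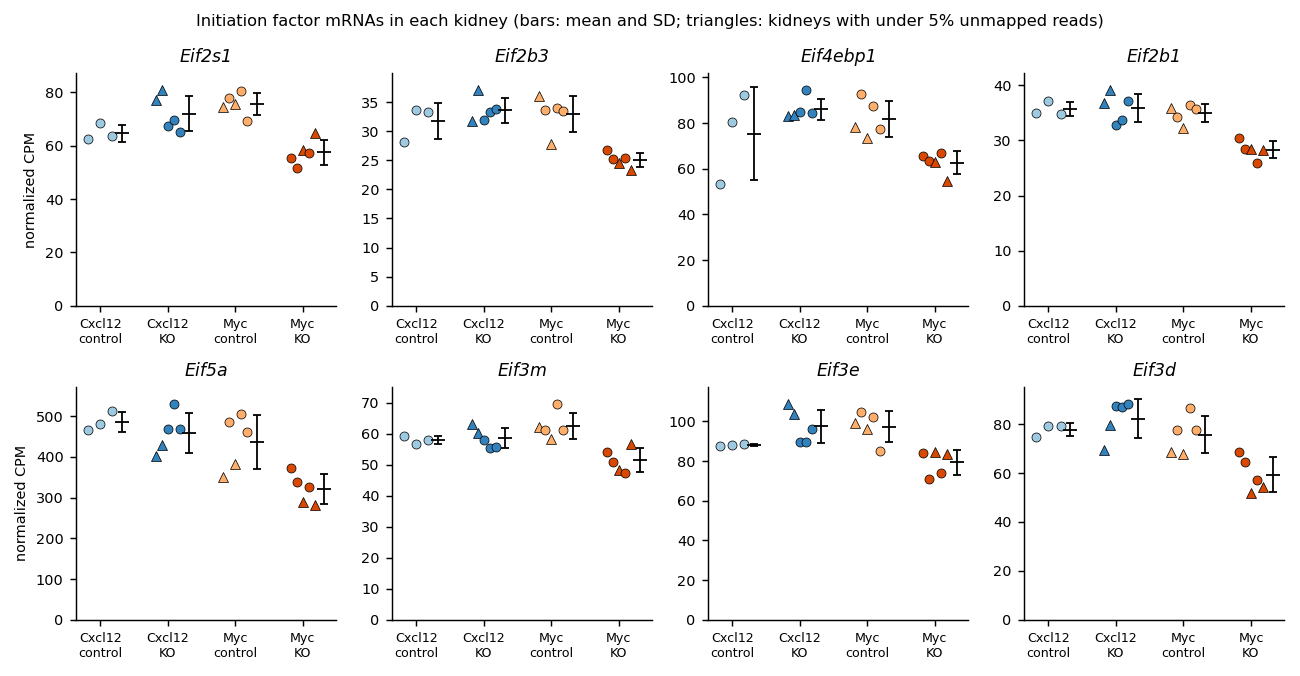
Normalized CPM (vertical axis, from 0) of the 4 called members and of the 4 members with the next smallest p in the Myc cohort, 1 point per kidney in each of the 4 groups, with the group mean and SD beside the points and triangles for kidneys with under 5% unmapped reads. In the upper row all Myc KO kidneys lie below all Myc control kidneys, as for Eif2s1 with 51.8 to 64.6 against 69.1 to 80.5 CPM.

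Subunits of eIF3 were lower in 13 of 14 cases, with a median log2 fold change of -0.20 and an unadjusted p under 0.05 for 8 of them, but none passed the adjusted threshold. Eif3m had 54.1, 50.9, 48.4, 47.2 and 56.8 CPM in Myc KO and 62.2, 61.2, 58.4, 69.4 and 61.3 CPM in Myc control kidneys (log2 fold change -0.28, SE 0.08, adjusted p = 0.081 by edgeR). The KO and control kidneys of Eif3m did not overlap. Eif3e had 83.8, 71.1, 84.3, 74.1 and 83.5 CPM in Myc KO and 99.1, 105, 95.9, 102 and 85.1 CPM in Myc control kidneys (log2 fold change -0.29, SE 0.08, adjusted p = 0.082 by edgeR). These did not overlap either, although control kidney 5 lay within 1 CPM of KO kidney 3. Eif3d, a subunit that can itself bind the cap of some mRNAs, had 68.8, 64.7, 51.7, 57.3 and 54.2 CPM in Myc KO and 68.8, 77.7, 67.9, 86.6 and 77.9 CPM in Myc control kidneys. KO kidney 1 was level with control kidneys 1 and 3 (log2 fold change -0.35, SE 0.10, adjusted p = 0.086 by edgeR). Eif3a, the largest scaffold subunit, was the subunit above 0, with 402, 392, 392, 375 and 367 CPM in Myc KO and 435, 349.6, 398, 284 and 351 CPM in Myc control kidneys. Its KO kidneys lay within the range of the controls (log2 fold change 0.08, SE 0.11, adjusted p = 0.67 by edgeR).

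No tested gene of the eIF4E, eIF4G and eIF4A groups passed the threshold in Myc KO kidneys. Eif4e, the cap-binding protein, had 61.6, 52.8, 48.1, 51.0 and 55.9 CPM in Myc KO and 60.0, 62.2, 56.9, 55.8 and 55.2 CPM in Myc control kidneys (log2 fold change -0.11, SE 0.08, adjusted p = 0.43 by edgeR). Eif4g1, the main scaffold, had 669, 638, 627, 607 and 591 CPM in Myc KO and 661, 579, 645, 587 and 619.8 CPM in Myc control kidneys, with a log2 fold change of 0.02 (SE 0.08). Eif4a1, the RNA helicase, had 69.8, 60.6, 47.6, 67.1 and 52.7 CPM in Myc KO and 54.0, 77.8, 56.2, 66.3 and 67.0 CPM in Myc control kidneys, with a log2 fold change of -0.11 (SE 0.13). The groups overlapped in each of these 3 genes, although Myc KO kidneys 2, 3 and 4 lay below all controls for Eif4e. The 5 genes of the helicase group, with the cofactors Eif4b and Eif4h, were all lower by 0.06 to 0.15 on the log2 scale, and none had an unadjusted p under 0.05. Eif4g3 and the eIF4E homologue Eif4e3 had the highest log2 fold changes of all members, 0.19 and 0.20, with adjusted p of 0.21 and 0.30 by edgeR.

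Among the factors of later steps, Eif5a had the lowest log2 fold change of all members. It had 372, 339.7, 289, 326 and 281 CPM in Myc KO and 351, 487, 384, 504 and 461 CPM in Myc control kidneys. The spread was wide in both groups, and KO kidney 1 lay above control kidney 1. The log2 fold change was -0.44 (SE 0.12, adjusted p = 0.078 by edgeR, exact permutation p = 0.016). Eif6, which keeps the ribosomal subunits apart, had a log2 fold change of -0.34 (SE 0.13, adjusted p = 0.16 by edgeR), whereas Eif5, Eif5b and Eif5a2 were between -0.09 and 0.06. Eif1, Eif1b, Eif1a and Eif1ax encode factors of scanning and start codon choice, and Eif1ad was listed with them by its symbol. Of these genes, Eif1a, Eif1ax, Eif1ad and Eif1b were lower by 0.14 to 0.22 and Eif1 was higher by 0.07 on the log2 scale. Eif2a and Eif2d, which can deliver initiator tRNA without eIF2, were lower by 0.15 and 0.29.

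Every Myc KO kidney was below every Myc control kidney in 9 members, out of 50 tested, where 3.74% of all genes did so. These were the 4 called members with Eif3e, Eif3l, Eif3m, Eif2s3x and Eif1ax. No member had every KO kidney above every control kidney, against 2.12% of all genes. A single kidney can be summarised by the median over members of log2 CPM centred on the mean of the cohort. This median was 0.03, -0.05, -0.11, -0.10 and -0.12 in Myc KO kidneys 1 to 5 and 0.08, 0.13, 0.04, 0.11 and 0.11 in Myc control kidneys 1 to 5. The groups did not overlap, and KO kidney 1 came close to control kidney 3.

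**Figure D4:**
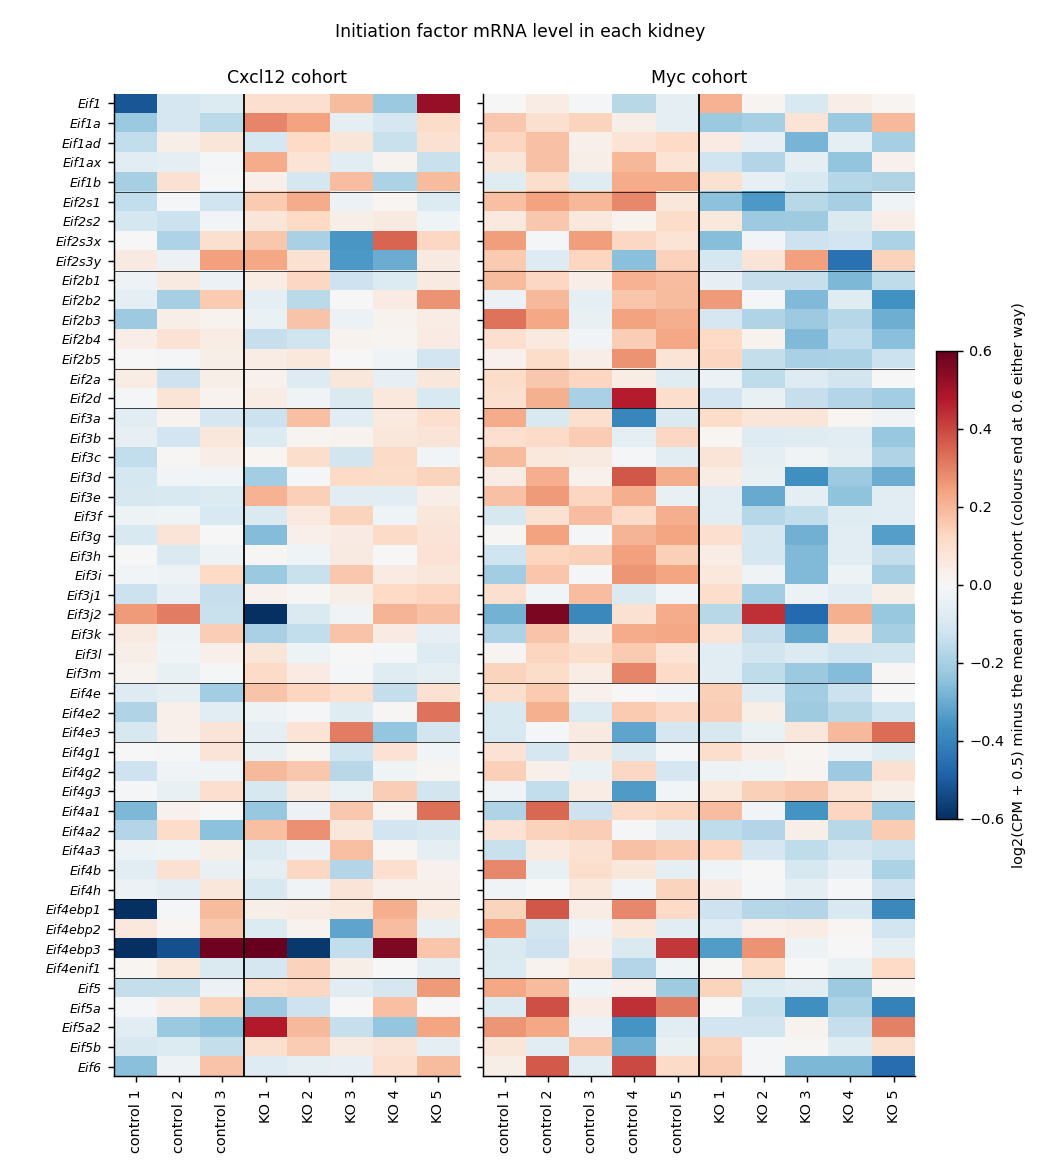
Log2(CPM + 0.5) of the 50 tested members (rows, in blocks by role) in each kidney (columns), as the difference from the mean of the cohort, with red above and blue below that mean. In the Myc cohort, 9 of the 50 members have every KO kidney below every control kidney, where 3.74% of all genes do so. In the Cxcl12 cohort, 4 of the 50 have every KO kidney above every control kidney, where 4.75% of all genes do so.

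The 4 called members were read by mapping group as well. Their KO and control kidneys did not overlap, so a value below 0 was fixed in advance and only its size is informative. Among the 2 Myc KO and 2 Myc control kidneys with under 5% unmapped reads, the difference in mean log2 CPM was -0.29 for Eif2s1, -0.40 for Eif2b3, -0.37 for Eif4ebp1 and -0.26 for Eif2b1. Among the other 3 and 3 kidneys it was -0.46, -0.38, -0.39 and -0.33 in the same order. Of the other members described kidney by kidney, Eif1, Eif4g1 and Eif3a were below 0 in the first group and above 0 in the second. The rest were below 0 in both. In these groups 44 and 42 of 50 members were lower, and the share of all genes was not computed within them. With the mapping group as a term, 11 members were called, all lower, and without the 6 kidneys 0 were called. Leaving out 1 kidney left 0 called members without Myc KO kidney 2, 3 or 4 or Myc control kidney 2 or 4, 1 without KO kidney 5 or control kidney 5, 2 without KO kidney 1, 3 without control kidney 1 and 8 without control kidney 3. The fold changes moved less, with log2 values of Eif2s1 from -0.44 to -0.36 and a median over members from -0.20 to -0.14. DESeq2 called 11 members lower, among them the same 4. Called were 3 each, without Eif2b1, by limma voom, by another scaling of the libraries (RLE) and by the fit without a filter on low counts. The share of all genes called under each of these settings is not given here, so these counts do not compare members with other genes. Of 23 alternatives, 16 kept the call of Eif2s1, 12 that of Eif2b3, 9 that of Eif4ebp1 and 5 that of Eif2b1.

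**Figure D5:**
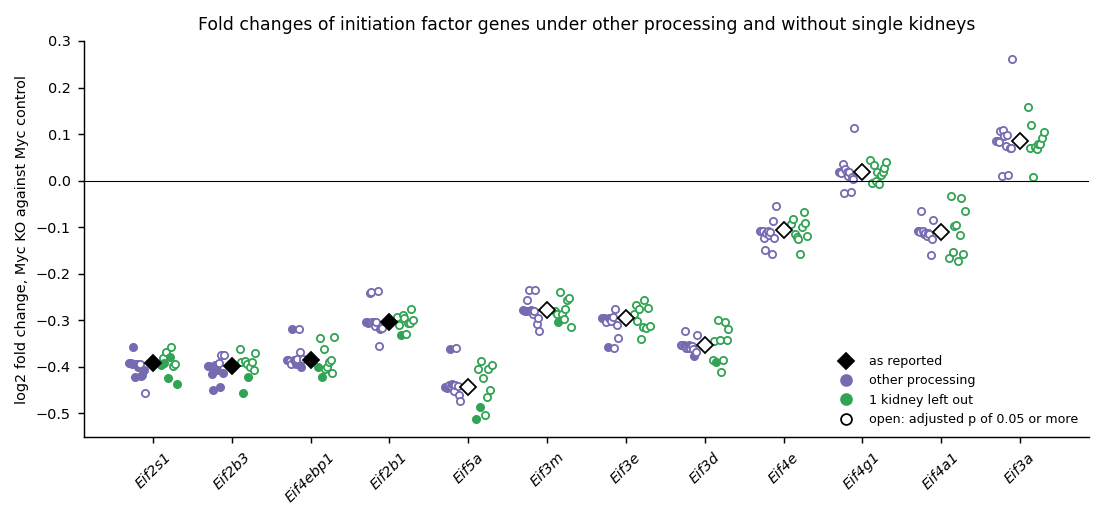
Log2 fold change of Myc KO against Myc control (vertical axis) for 12 members as reported (diamonds), under other processing (purple) and without single kidneys (green), filled where the adjusted p is under 0.05. The 8 genes on the left stay below 0 throughout, with Eif2s1 between -0.46 and -0.36, and filled points appear under some settings only. These 8 were chosen by their p in this same comparison, so their constant sign is not a separate test.

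Markers of other cell types were read beside these values. Endothelial markers had log2 fold changes above 0 in 4 of 4 genes (2 with an unadjusted p under 0.05), and their summed level was 549 to 767 CPM in Myc KO and 392 to 666 CPM in Myc control kidneys. Podocyte markers were above 0 in 3 of 3 genes (2 with an unadjusted p under 0.05), with sums of 479 to 594 and 313 to 541 CPM. Neutrophil markers had a log2 fold change above 0 in 4 of 4 genes, none with an unadjusted p under 0.05, with sums of 117 to 219 and 39.0 to 185 CPM, and proximal tubule markers in 4 of 5 (1 with an unadjusted p under 0.05, Slc5a12 at 0.69) with sums of 2998 to 4609 and 3199 to 3876 CPM. Markers of loop, distal tubule and collecting duct were above 0 in 4 of 5, with sums of 4314 to 5933 and 3671 to 6561 CPM, and macrophage markers in 2 of 4 (1 with an unadjusted p under 0.05 and a lower level), with sums of 53.0 to 85.2 and 60.5 to 77.3 CPM. Of the injury markers Havcr1, Lcn2 and Krt20, 2 were below 0, Havcr1 with a log2 fold change of -1.32 and an unadjusted p under 0.05, Lcn2 was at 0.39, and the sums were 2773 to 3248 and 2539.8 to 3313 CPM. Lymphocyte markers summed to under 1 CPM in every kidney, and no marker was at 0 in all kidneys. Their part in the lower initiation factor levels was not tested.

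Genes around the initiation machinery were read from lists of their own. Of 9 genes listed with elongation and termination, 9 were lower in Myc KO kidneys, 6 with an unadjusted p under 0.05, and 1 fell past the threshold. The shares of all genes were 50.1%, 11.2% and 1.29%. The called gene was Eef1e1, a scaffold protein of the multi-tRNA synthetase complex and not an elongation factor. None of the other genes of the list was called. Eef1e1 had 29.8, 26.1, 27.8, 21.9 and 28.0 CPM in Myc KO and 43.3, 44.1, 34.9, 47.9 and 39.0 CPM in Myc control kidneys. No KO kidney reached a control kidney (log2 fold change -0.65, SE 0.10, adjusted p = 0.014 by edgeR). The call was kept in 18 of 23 alternatives. It was lost without Myc KO kidney 2 or 3 or Myc control kidney 2, with edgeR adjusted p of up to 0.058, and without the kidneys of under 5% unmapped reads, with 0.056. The 11 accessory factors of the mRNA and the small subunit had 9 lower genes and none called, from Abce1, a recycling factor, at -0.33 to the helicase Ddx3x at 0.23. Of the 6 eIF2 kinases and phosphatase subunits 4 had log2 fold changes above 0 and 2 below, with a median of 0.16 and Ppp1r15a (GADD34) at 0.44. Eif2ak3 (PERK) alone had an unadjusted p under 0.05, and none was called. Of 9 genes of mTORC1 and MNK signalling 5 were lower and none called, from Akt1s1 at -0.39 to Mknk2 at 0.23. Akt1s1 alone had an unadjusted p under 0.05 (adjusted p = 0.097 by edgeR). The hypusine enzymes Dhps and Dohh, which modify eIF5A, had -0.15 and -0.26, and the mitochondrial factors Mtif2 and Mtif3 had -0.12 and -0.35, none called.

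The members with and without CACGTG in their promoter windows were set side by side in the Myc cohort. Of the 10 with the motif, 8 were lower, 2 had an unadjusted p under 0.05 with a lower level and 0 were called, with a median log2 fold change of -0.11. Of the 29 without it, 25 were lower, 15 had such a p and 2 were called, with a median of -0.16. The range with the motif ran from -0.44 for Eif5a to 0.08 for Eif3a. No test was made between these groups of genes.

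The loss of Cxcl12 in tubule cells left no initiation factor past the threshold. No gene of the 15154 tested was called in this cohort (0.0%), by edgeR or among the members by DESeq2, with 3 control kidneys. An unadjusted p under 0.05 was found for 2 members with a higher level (4.0%, against 6.41% of all genes) and for 0 with a lower level (against 6.63%). The median log2 fold change of the members was 0.05, and 38 of 50 were above 0, against 50.2% of all genes, and 12 below 0, against 49.8%. Every Cxcl12 KO kidney was above every control kidney in 4 members (8.0%, against 4.75% of all genes), namely Eif5b, Eif3e, Eif1a and Eif3j1, and below in 0 (against 4.88%).

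Eif1, which guards the choice of the start codon, had 105, 105, 112, 83.8 and 141 CPM in Cxcl12 KO and 68.3, 91.1 and 92.4 CPM in Cxcl12 control kidneys. KO kidney 4 lay among the controls, and control kidney 1 was the lowest of all (log2 fold change 0.38, SE 0.16, adjusted p = 0.35 by edgeR). Eif1a had 183, 176, 143, 139 and 161 CPM in Cxcl12 KO and 128, 139 and 133 CPM in control kidneys. The highest were KO kidneys 1 and 2, which have under 5% unmapped reads, a class with no Cxcl12 control kidney (log2 fold change 0.27, SE 0.11, adjusted p = 0.33 by edgeR). Eif2s1 had 77.2, 80.8, 67.4, 69.7 and 65.2 CPM in Cxcl12 KO and 62.4, 68.4 and 63.6 CPM in Cxcl12 control kidneys, again highest in KO kidneys 1 and 2 (log2 fold change 0.15, SE 0.09). Eif4ebp1 had 83.2, 83.7, 84.8, 94.3 and 84.5 CPM in Cxcl12 KO and 53.1, 80.5 and 92.5 CPM in control kidneys, a spread of controls wider than that of either KO group (log2 fold change 0.19, SE 0.15). Eif2b1 and Eif2b3 had log2 fold changes of 0.01 and 0.08, and Eif5a one of -0.08. Eif3m was at 0.02, Eif3d at 0.08 and Eif3e at 0.15. Among these 6 genes the groups overlapped in all but Eif3e, and none passed the threshold. Eif3e had 109, 104, 89.8, 89.5 and 96.3 CPM in Cxcl12 KO and 87.8, 88.1 and 88.6 CPM in control kidneys. Its level was also highest in KO kidneys 1 and 2, and its log2 fold change ranged from 0.00062 to 0.19 over 21 alternatives. Eif4e, with 62.2, 60.2, 59.1, 49.9 and 58.7 CPM in KO and 52.3, 52.9 and 47.6 CPM in control kidneys, overlapped through KO kidney 4 (log2 fold change 0.19, SE 0.09, adjusted p = 0.41 by edgeR).

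Neutrophil markers stood apart between the Cxcl12 groups. All 4 had a higher level in Cxcl12 KO kidneys, with an unadjusted p under 0.05, no adjusted p under the threshold and a median log2 fold change of 1.69, and their summed level was 25.8 to 112 CPM against 15.9 to 22.7 CPM in controls. Proximal tubule markers were lower in 5 of 5 genes, with sums of 3507 to 3832 CPM against 3918 to 4717 CPM, and injury markers higher in 3 of 3, with sums of 2553 to 3080 CPM against 1580.2 to 2390.1 CPM. Endothelial markers were above 0 in 4 of 4, podocyte markers in 3 of 3, markers of loop, distal tubule and collecting duct in 1 of 5 and macrophage markers in 0 of 4. Their part in the initiation factor levels was not tested. None of the 39 genes of the pathway lists was called in this cohort.

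The difference between both KO effects was tested over all 18 kidneys, since the cohorts share no kidney. No member passed the threshold, where 0.0377% of 15903 genes had a significantly lower and 0.0314% a higher effect of Myc than of Cxcl12. The members with the smallest p were Eif2s1, with a difference of -0.55 (SE 0.11, adjusted p = 0.061 by edgeR), Eif2b3 with -0.49 (SE 0.12, adjusted p = 0.089 by edgeR), Eif3e with -0.45 (SE 0.11, adjusted p = 0.094 by edgeR) and Eif4ebp1 with -0.58 (SE 0.17, adjusted p = 0.14 by edgeR), on the log2 scale. An unadjusted p under 0.05 with a lower value was found for 18 members (36.0%, against 6.77% of all genes) and with a higher value for 0 (against 4.62%). The difference was below 0 for 43 members, against 51.0% of all genes, and above 0 for 7, against 49.0%. DESeq2 called these 4 members, and limma called none. The share of all genes called by these and the following fits is not given here, so these counts do not compare members with other genes. Other edgeR fits called Eif2s1, Eif3d and Eif5a with the mapping group as a term (the class under 5% unmapped holds no Cxcl12 control kidney), and Eif2s1 with a length and GC offset or without Myc KO kidney 5. Whether the effects of both genotypes on these mRNAs differ thus depends on the fit.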

How the data were processed

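RNA of 18 whole kidneys was sequenced after library preparation by the sequencing provider. The authors trimmed the reads with Trimmomatic 0.32, aligned them to GRCm38 with STAR 2.4.0 (submitters' processing notes) and deposited 1 file of raw read counts by gene for every kidney. The annotation release is not given in the sources used here. The column that ignores the strand was used. Symbols, positions and exon lengths came from GENCODE vM21 on GRCm38, and 45143 of 45706 gene identifiers matched a symbol.

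Low-count genes were removed within each cohort by filterByExpr of edgeR 4.0.16 (R 4.3.3), libraries were scaled by TMM, and the quasi-likelihood test was run over all genes, with Benjamini-Hochberg adjustment and a threshold of 0.05. CPM are TMM-scaled, and errors of a mean are SD. Counts of 2 kidneys from the same group differed beyond counting error in 33 of 33 pairs (chi-square per degree of freedom 6.31 to 76.1). limma 3.58.1 and DESeq2 1.42.0 gave alternatives, and the fits were tested on simulated data. Figures were drawn with matplotlib 3.10.9 and tables made with pandas 2.3.3 and numpy 2.4.6 in Python 3.11.15.

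The members and lists were chosen with earlier results of these data known. Described kidney by kidney were the called members, filled up to 8 by the smallest p in the Myc cohort, the 2 with the smallest p in the Cxcl12 cohort, fixed representatives (Eif4e, Eif4ebp1, Eif4g1, Eif4a1, Eif5a, Eif2s1, Eif2b5 and Eif3a), both targeted genes, and pathway genes that were called. Other members are given by count and range, and Eif6, Eif4g3 and the members of small groups were named after their values were seen. The mapping limit of 5% unmapped reads was likewise set with the shares known.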

Additional observations from a re-analysis of the deposited data

Results flagged for a closer look

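Of 54 groups of kidneys checked for a single distant value by Dixon's criterion, 4 were past its limit, where chance gives about 1 in 20. Cxcl12 KO kidney 4 had the highest Eif4ebp1 level of its group, 94.3 CPM against 83.2 to 84.8 CPM in the other 4, and the lowest Eif4e level, 49.9 CPM against 58.7 to 62.2 CPM. Myc KO kidney 1 had the highest Eif2b5 level of its group, 78.5 CPM against 62.5 to 65.6 CPM. Myc control kidney 4 had the lowest Cxcl12 level of its group, 29.6 CPM, with the next at 43.0 CPM.

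The KO effect on Myc itself differed between the cohorts by -1.83 on the log2 scale (Myc effect minus Cxcl12 effect, adjusted p = 0.00011 by edgeR). Myc is the targeted gene of the Myc cohort.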

How the results depend on the processing

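The median log2 fold change of the members stayed negative in the Myc cohort and positive in the Cxcl12 cohort in all alternatives, whereas the count of called members moved. In the Myc cohort, where 4 were called, the count was 11 with DESeq2, 8 in 1 fit of all 18 kidneys, 11 with the mapping group as a term, 3 with RLE scaling, limma voom or no filter, 0 without the kidneys with under 5% unmapped reads (fewer kidneys), 2 with the first-strand and 2 with the second-strand column, and 0 to 8 without 1 kidney. Each strand column held only 51.8% to 52.8% as many reads on genes as the column without strand. In the Cxcl12 cohort the count of called members was 0 throughout. For the difference of the effects it was 4 with DESeq2, 3 with the mapping group as a term, 1 with a length and GC offset and 0 to 1 without 1 kidney (1, Eif2s1, without Myc KO kidney 5), and the median difference of -0.25 ranged from -0.29 to -0.20 without 1 kidney, the latter without Cxcl12 control kidney 1. The share of all genes called is not given for these settings. Beyond these settings, the cause was not tested.

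The deviations of kidneys with the same replicate number did not correlate above 0.1 in every pair (mean correlation 0.06, from -0.17 to 0.33, in the Myc cohort and 0.08, from -0.05 to 0.18, in the Cxcl12 cohort), and 1 of 10 and 4 of 6 kidneys correlated best with their own number. With the replicate number as a block, 0 members were called in the Myc cohort, and 2 with the block and a length and GC offset, while the Cxcl12 cohort and the difference had 0 in both. The edgeR adjusted p of Eef1e1 in the Myc cohort was 0.062 with the block.

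Values near 0 changed sign. In the Myc cohort, Eif4g1 went to -0.0262 with the offset and -0.0256 with the offset and the block, and ranged from -0.00723 to 0.0436 without 1 kidney. In the Cxcl12 cohort, Eif2b1 went to -0.00630 with upper quartile scaling, -0.0439 with the mapping term, -0.0506 without the kidneys of under 5% unmapped reads and -0.0102 with the second-strand column. Eif5a went to 0.00659 and 0.000194 with the mapping term and without those kidneys, and Eef1e1 to -0.0226 and -0.0292, and to -0.0536 with the second-strand column. Eif3m went to -0.00185 with upper quartile scaling, -0.0373 with the mapping term, -0.0438 without those kidneys, -0.0702 with the offset, -0.0863 with the offset and the block, and -0.0536 with the second-strand column. Eif2b5 went to 0.0288 with the block, 0.0275 with the offset and 0.0796 with both, and Eif3a to -0.0131 with both. Without 1 kidney, the lowest and highest values were -0.00618 and 0.360 for Eif4ebp1, -0.0252 and 0.0425 for Eif2b1, -0.0130 and 0.0352 for Eif3m and -0.0352 and 0.00900 for Eif2b5. Depth limits the lowest members most, with 10 to 26 reads per kidney for Eif3j2 and 28 to 137 for Eif4ebp3.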
